A study of Mus musculus with 24 samples.

Results

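The i12 and i10 parental lines are mouse embryonic stem cell lines from which recombined clones of a study on contacts between the genome and the nuclear lamina were made. They were compared with each other over their poly(A) RNA, with 2 replicates per line, so that 4 of the 24 libraries of the series enter the comparison. Members were the libraries whose labels name i12 or i10 as the recombination and give the line as parental, and replicates were paired by their number. Both lines derive from F121/9, a female F1 hybrid of 129/Sv and CAST/EiJ mice, carry the genotype label control, and grew without serum in medium with leukemia inhibitory factor, the MEK inhibitor PD0325901 and the GSK-3β inhibitor CHIR99021. The labels do not say by which construct or clone the i12 and i10 parental lines differ, and each name stands for 1 line. The recombined lines i12 clone 10 and i10 clone 18, with 2 libraries each, grew in the same medium and were used as a second comparison with the same 2 line names.

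In an F1 hybrid each gene has 1 copy from either mouse strain, and reads that cover a variant can be assigned to the 129S1 or the CAST allele. A change that touches 1 parental copy of a chromosome then moves the ratio of 129S1 to CAST counts of its genes together, while a regulatory change that reaches both copies leaves the ratio where it was. Mouse embryonic stem cells in culture are known to gain or lose chromosomes at times. DNA copy number was not measured here, and in RNA from bulk cultures a large change in some of the cells cannot be told apart from a small change in all of them.

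The i12 parental libraries held 4123671 and 3829089 counts (replicates 1 and 2) and the i10 parental libraries 5189267 and 3286819 (totals of all 24 libraries ran up to 15581094). The 129S1 allele held between 48.85% and 48.98% of the non-mitochondrial counts in these 4 libraries. Mitochondrial transcripts held 3.29% and 5.12% of the counts in the i12 parental libraries and 3.57% and 5.91% in the i10 parental libraries. Replicate 1 and replicate 2 of each line differed widely, with a chi-square per degree of freedom of 20.6 in i12 and 21.2 in i10, against 3.45 and 3.23 between same-numbered libraries of the 2 lines. The labels call the replicates biological duplicates and do not say what the numbers share. Tests are therefore given without and with a term for the replicate number (a replicate block).

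On 4 chromosomes the allelic balance of the i12 parental line differed from that of the i10 parental line. Chromosomes 3 and 6 were shifted towards CAST, and chromosomes 8 and 14 towards 129S1. In total counts the genes of these 4 chromosomes were higher in i12 by a median factor of 1.06, 1.06, 1.08 and 1.06, in the order 3, 6, 8 and 14. Each value is a median over genes of the log2 difference. Total counts rest on 675, 679, 741 and 503 genes that averaged 10 counts or more. The allele and ratio values rest on the 543, 555, 648 and 396 of them with a 129S1 share of 20% to 80%.

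On chromosome 3 the 129S1 share of allelic counts was 47.8% (95% Wilson interval 47.5 to 48) and 46.3% (46.0 to 46.6) in the i12 parental libraries. It was 50.6% (50.3 to 50.8) and 49.9% (49.6 to 50.2) in the i10 parental libraries, and 49.9% to 51.7% in the 20 libraries outside this comparison. Both i12 libraries thus lay below every other library of the series. These intervals cover counting error only.

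On chromosome 6 the shares were 48.5% and 46.8% in the i12 parental libraries against 51.4% and 50.9% in the i10 parental libraries. The other 20 libraries ran from 51.0% to 56.6%. On chromosome 8 the shares were 52.5% and 52.9% in i12 against 49.0% and 48.3% in i10, with 47.8% to 49.1% in the other 20 libraries. On chromosome 14 they were 53.7% and 55.3% in i12 against 50.9% and 50.4% in i10. Here 18 other libraries lay at or below 51.1%, and the 2 libraries of d3 clone 21, in which few 129S1 counts of chromosome 14 remain, were left out of that range.

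**Figure D1:**
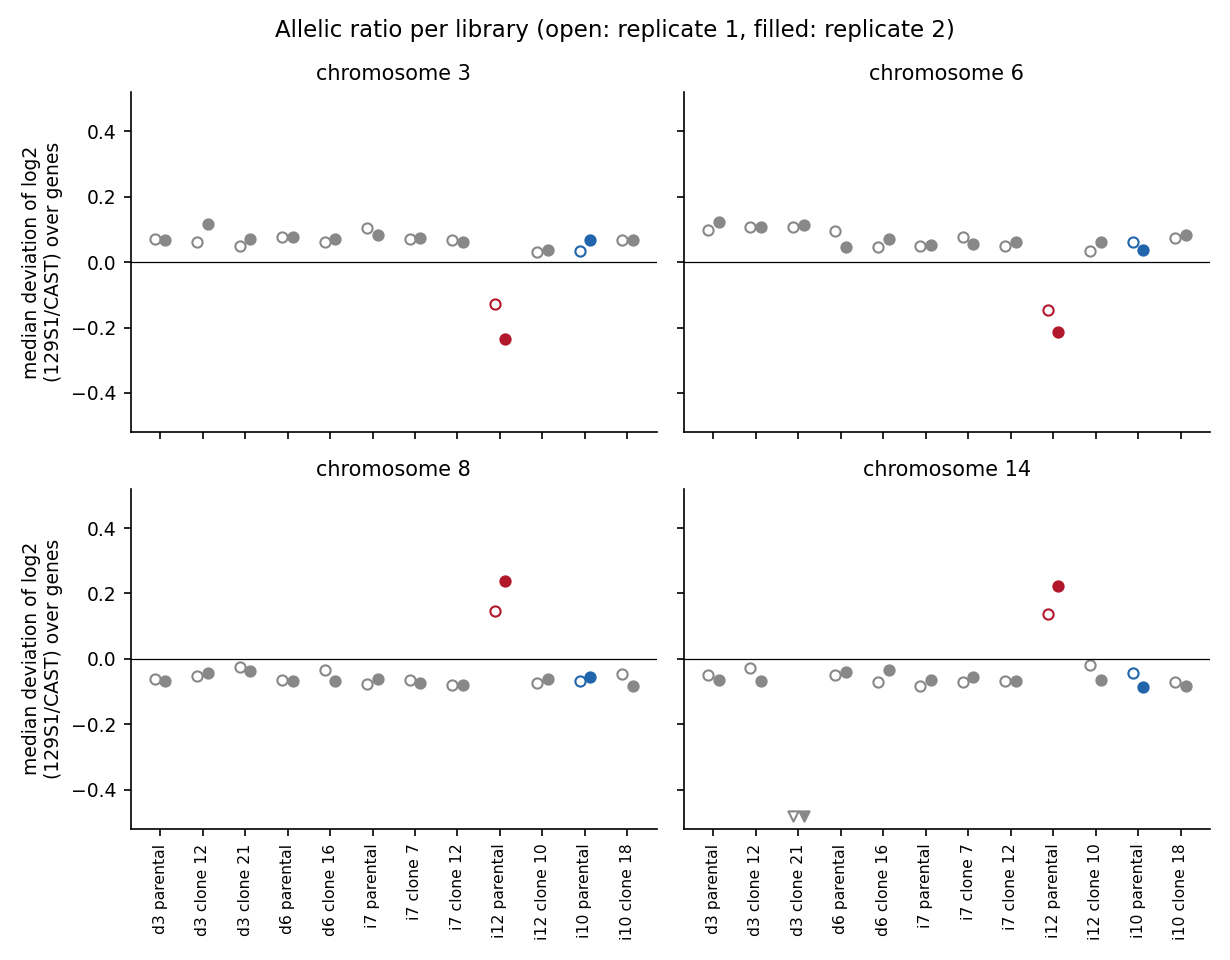
Median deviation of log2 (129S1/CAST) over genes (y axis, log2 units) in every library of the series on chromosomes 3, 6, 8 and 14, relative to each gene's mean over the 8 libraries of i10 and i12; open points are replicate 1, filled points replicate 2, red i12 parental, blue i10 parental. Both i12 parental points lie apart from all others on each chromosome, except that the 2 libraries of d3 clone 21 on chromosome 14, drawn as triangles at the lower edge, lie below the axis.

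The difference came from 1 allele on each of the 4 chromosomes. On chromosome 3 the CAST counts were higher in i12 by a median of 0.16 (log2) in pair 1 and 0.24 in pair 2, while the 129S1 counts moved by -0.018 in both pairs. On chromosome 6 the CAST counts were higher by 0.17 and 0.26, and the 129S1 counts moved by -0.042 and -0.014. On chromosome 8 the 129S1 counts were higher by 0.22 and 0.24, with -0.0079 and -0.022 for CAST. On chromosome 14 they were higher by 0.14 and 0.25, with -0.034 and -0.047 for CAST. As linear factors the allele that was higher stood at 1.15, 1.16, 1.17 and 1.14 times its i10 level on chromosomes 3, 6, 8 and 14, and the other allele at 0.988, 0.981, 0.99 and 0.972 times.

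The ratio of 129S1 to CAST combined both alleles of a gene in the same library. Its median log2 difference was -0.22 ± 0.044 (SD, n = 2 pairs) on chromosome 3, -0.22 ± 0.039 on chromosome 6, 0.25 ± 0.052 on chromosome 8 and 0.24 ± 0.10 on chromosome 14. Pair 2 showed the larger difference on each of them, with -0.25, -0.25, 0.29 and 0.31 against -0.19, -0.20, 0.21 and 0.17 in pair 1. Within the i12 line, replicate 2 differed from replicate 1 in the same directions, by -0.073, -0.075, 0.075 and 0.10. Between the replicates of i10 parental these values were -0.00056, -0.028, 0.016 and -0.030. On the other 16 chromosomes the pair values lay between -0.10 and 0.025.

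With limma over the 8 libraries of i10 and i12, on 1 median per chromosome and library, the ratio differed on 6 of 20 chromosomes (30% called at a Benjamini-Hochberg adjusted p under 0.05, 2 higher and 4 lower). This fit was chosen after the data had been seen. The coefficient was -0.23 on chromosome 3 (SE 0.028, limma adjusted p 7.61e-05), -0.23 on chromosome 6 (SE 0.022, 3.57e-05), 0.25 on chromosome 8 (SE 0.026, 3.96e-05) and 0.25 on chromosome 14 (SE 0.028, 5.2e-05). These 4 stayed called in each of the refits without 1 parental library and with the replicate block. Chromosomes 18 (-0.078, SE 0.018, adjusted p 0.00756) and 16 (-0.058, SE 0.015, adjusted p 0.0113) were called with smaller shifts, both lower. The call of chromosome 18 was lost without i10 parental replicate 2 (adjusted p 0.0732). That of chromosome 16 was lost without i12 parental replicate 2 (0.0852) and without either i10 parental replicate (0.0575 and 0.0621). For 129S1 counts alone the same fit called 2 chromosomes of 20 (10%), 8 and 14, and for CAST counts alone it called 2 (10%), 3 and 6. An exact permutation test of 2 against 2 libraries cannot go below p = 0.333, so none is given per chromosome.

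In total counts, pair 1 and pair 2 differed by 0.060 and 0.095 (median log2) on chromosome 3, 0.046 and 0.11 on chromosome 6, 0.11 and 0.12 on chromosome 8, and 0.054 and 0.11 on chromosome 14. The other 16 chromosomes had pair values of -0.055 to 0.011. The 4 chromosomes were thus above every other chromosome in both pairs. The limma fit called 3 of 20 chromosomes (15%), all higher: chromosome 3 (0.081, SE 0.015, adjusted p 0.00899), chromosome 14 (0.087, SE 0.016, adjusted p 0.00899) and chromosome 6 (0.078, SE 0.018, adjusted p 0.023). Chromosome 8 had a coefficient of 0.087 (SE 0.031) and an adjusted p of 0.105, and with the replicate block an adjusted p of 0.0064. Its coefficient was 0.048 without i12 parental replicate 2 and 0.13 without i12 parental replicate 1 (adjusted p 0.343 and 0.0267). With the block 6 chromosomes were called, 4 higher and 2 lower. Without i10 parental replicate 2 none was called at the adjusted threshold, although 8 had an unadjusted p under 0.05, and without i12 parental replicate 1 the number was 6. The call of chromosome 6 was also lost without i12 parental replicate 2 (adjusted p 0.133).

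**Figure D2:**
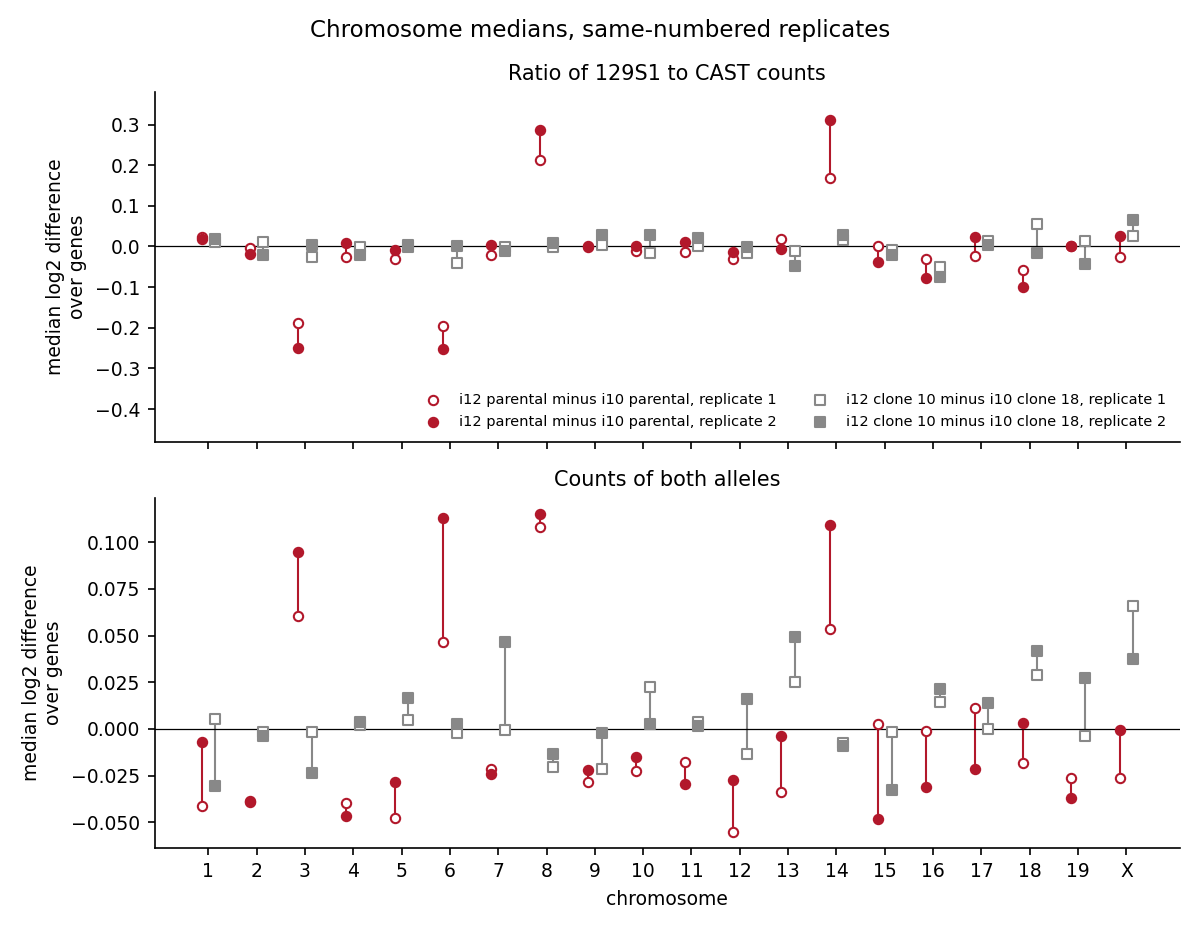
Median log2 difference over the genes of each chromosome (y axis, log2 units; the panels have different ranges), for the ratio of 129S1 to CAST counts (top) and for the counts of both alleles (bottom); circles are i12 parental minus i10 parental, squares the recombined clones of the same lines, open for replicate 1 and filled for replicate 2, and a line joins the pair. In the ratio, chromosomes 3 and 6 lie at -0.19 to -0.25 and chromosomes 8 and 14 at 0.17 to 0.31; in total counts all 4 lie at 0.046 to 0.12.

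The shifts were seen in all bins with enough genes along the 4 chromosomes. In bins of 10 Mb with at least 5 genes, the mean ratio difference of the 2 pairs was negative in 16 of 16 bins of chromosome 3 (-0.35 to -0.12) and in 15 of 15 of chromosome 6 (-0.30 to -0.060). It was positive in 13 of 13 bins of chromosome 8 (0.18 to 0.35) and in 12 of 12 of chromosome 14 (0.088 to 0.39). Chromosome 14 had no such bin from 80 to 90 Mb. Its pair 1 stood at 0.016 from 0 to 10 Mb, and at 0.0 from 10 to 20 Mb and from 100 to 110 Mb. Total counts were higher in 16 of 16, 14 of 15, 13 of 13 and 11 of 12 bins. Neighbouring bins differed from each other by amounts comparable to the distance between the pairs, and no bin of the 4 chromosomes had the opposite sign in the ratio.

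**Figure D3:**
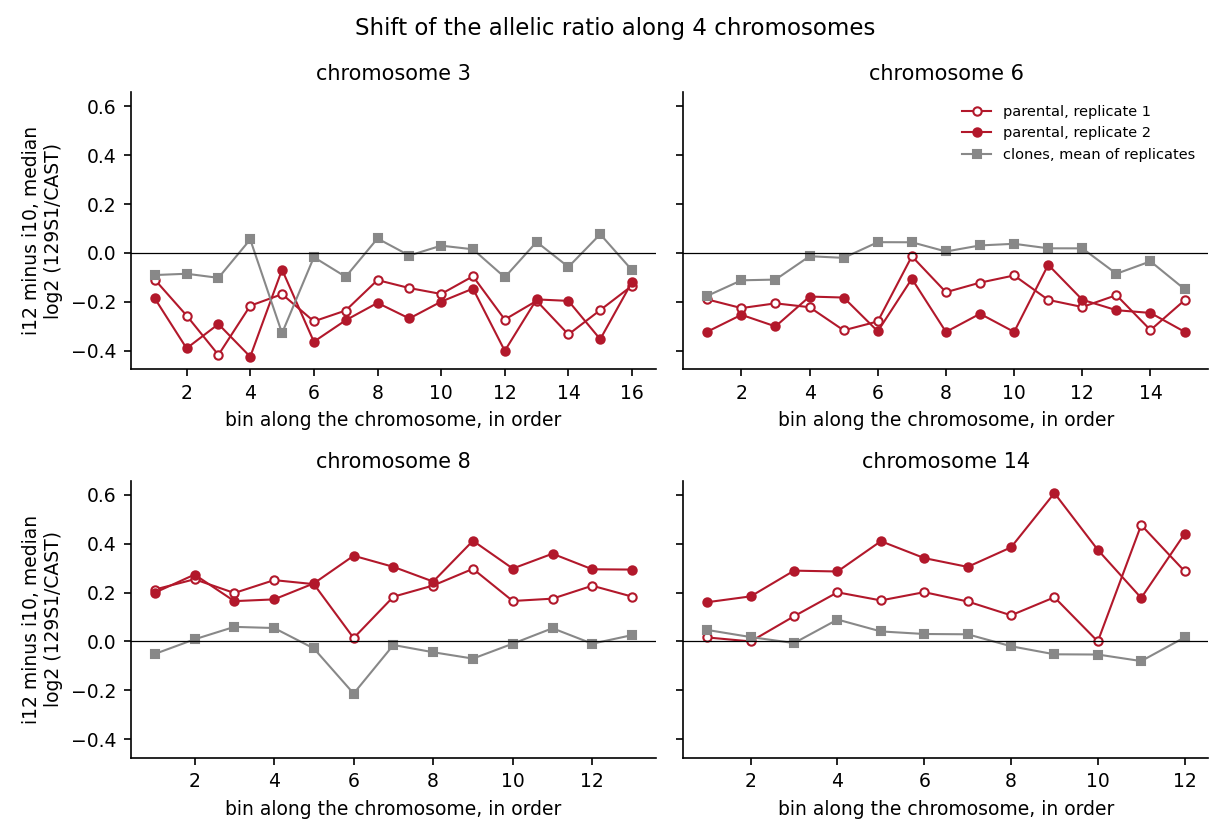
Median log2 (129S1/CAST) difference of i12 minus i10 (y axis, log2 units) in bins of 10 Mb, in order along chromosomes 3, 6, 8 and 14 (x axis, bin number); red lines are the 2 parental pairs (open: replicate 1, filled: replicate 2) and grey squares the mean of the clone pairs. The parental lines stay on 1 side of zero along each chromosome, apart from values near zero in single bins of pair 1, and the clones scatter around zero.

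The shift was present at low, middle and high expression. With the genes of each chromosome in 3 equal groups by mean count, the ratio differed by -0.18, -0.24 and -0.22 on chromosome 3 from the lowest to the highest group, by -0.22, -0.20 and -0.23 on chromosome 6, by 0.20, 0.25 and 0.27 on chromosome 8, and by 0.13, 0.27 and 0.24 on chromosome 14. In the lowest group pair 1 stood at -0.13, -0.085, 0.10 and 0.015 on chromosomes 3, 6, 8 and 14. Pair 2 stood there at -0.22, -0.35, 0.30 and 0.24, so low genes of chromosome 14 showed the shift mainly in pair 2. Genes whose counts come almost wholly from 1 allele gave no uniform picture in total counts. On chromosome 14 the 35 genes with a 129S1 share over 90% were higher in i12 by a median of 0.11, and the 27 with a share under 10% stood at -0.0071. On chromosome 8 the medians were 0.026 for 29 genes and 0.052 for 31 genes. On chromosome 3, 49 genes with a share under 10% stood at -0.021 and 50 with a share over 90% at -0.028, and on chromosome 6 the values were -0.028 for 48 genes and -0.016 for 43.

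Single genes of the shifted chromosomes rarely passed a threshold of their own. At an unadjusted p under 0.05 in the edgeR fit of the allelic ratio (5.47% of 10795 genes), the share was 12.2% on chromosome 3, 15.1% on chromosome 6, 15.4% on chromosome 8 and 12.6% on chromosome 14. Of these genes 58 of 61, 73 of 76, 91 of 92 and 48 of 48 moved in the direction of their chromosome. Over all tested genes, these included, 2.58% were higher and 2.89% lower at that level. Each direction was itself taken from genes of the chromosome in the same libraries, so the agreement is no separate support. On the other chromosomes the share was 0.746% to 4.57%, apart from chromosome 18 with 10.1% (27 of 30 lower), where many are protocadherin gamma genes that share exons.

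Genes with roles in pluripotent cells lie on the shifted chromosomes. Nanog on chromosome 6, a core transcription factor of naive pluripotency, had 1320 and 985 CPM (counts scaled to the TMM-corrected library size) in the i12 parental libraries and 1360 and 1070 in the i10 parental libraries. Slc2a3, a glucose transporter gene on the same chromosome, had 1020 and 915 CPM against 926 and 729. The 2 i12 values of Slc2a3 overlapped with those of i10, and neither gene was called in total counts or in the ratio. Zfp42 (Rex1), a marker of the naive state on chromosome 8, had 1470 and 636 CPM against 1390 and 658, and Slc7a5, an amino acid transporter gene, 645 and 744 against 572 and 554. Tdh on chromosome 14, a threonine dehydrogenase gene with high expression in mouse embryonic stem cells, had 503 and 387 CPM against 543 and 458. None of the 12 most highly counted genes named for chromosomes 6, 8 and 14 (4 each) was called, with edgeR adjusted p of 0.963 to 1 in total counts with the block.

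The recombined clones of the same lines did not show these shifts. On chromosomes 3, 6, 8 and 14 the ratio of i12 clone 10 to i10 clone 18 had pair medians of -0.040 to 0.029, and total counts of -0.024 to 0.0026. The 129S1 shares of i12 clone 10 were 50.1% and 49.9% on chromosome 3, 51.8% and 51.0% on chromosome 6, 48.9% and 48.5% on chromosome 8 and 50.9% and 51.1% on chromosome 14. The difference between the parental and the clone comparison was itself called by limma in the ratio of each of the 4 chromosomes: -0.20 for chromosome 3 (adjusted p 0.00333), -0.20 for 6 (0.000976), 0.26 for 8 (0.000976) and 0.21 for 14 (0.00271). Against its own parental line, i12 clone 10 was lower by 0.070 to 0.13 in total counts on the 4 chromosomes in both pairs. i10 clone 18 differed from i10 parental by -0.023 to 0.031 there. These comparisons share the parental libraries with the values above.

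Chromosome 18 differed in a smaller way. Its ratio in i12 parental minus i10 parental was -0.058 and -0.10 in the 2 pairs, and its 129S1 share 50.6% and 50.4% against 51.5% and 51.1%. While 7 of 9 bins were negative, the values were uneven. The bin from 30 to 40 Mb held 93 of the 297 genes and had the lowest mean (-0.18), and the others ran from -0.13 to 0.17. As given above, many chromosome 18 genes at an unadjusted p under 0.05 are protocadherin gamma genes that share exons. Their part in the chromosome's median was not tested. Total counts of chromosome 18 moved by -0.018 and 0.0031. Relative to the 8 libraries of i10 and i12, the i10 parental libraries lay at 0.034 and 0.061, the i12 parental libraries at -0.046 and -0.016, and the 4 clone libraries at -0.029 to 0.0057. Both parental lines thus lay outside the clones on opposite sides, except that i12 parental replicate 2 lay within their range. On chromosome 16 the pairs stood at -0.030 and -0.077, and the clone pairs at -0.050 and -0.075.

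Away from whole chromosomes, 3 genes were called for their allelic ratio among 10795 tested (0.0278%), among them Smarcc1 with a higher 129S1 share in i12 and Mrpl53 with a lower one. Smarcc1 encodes BAF155, a core subunit of the BAF chromatin remodelling complex of embryonic stem cells. Mrpl53 encodes a protein of the large mitochondrial ribosomal subunit and lies on the shifted chromosome 6.

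Smarcc1 (chromosome 9, 110117708 to 110240178, GRCm38) had 129S1 shares of 43.5% (95% Wilson interval 41.0 to 46.0) and 44.5% (41.4 to 47.8) in the i12 parental libraries. In the i10 parental libraries they were 13.1% (11.3 to 15.1) and 14.9% (12.2 to 18.1). The 129S1 allele stood at 161 and 105 CPM in i12 against 30.5 and 24.9 CPM in i10, while the CAST allele stood at 210 and 130 against 203 and 142 CPM. The lines did not overlap for 129S1 and overlapped for CAST. The log2 difference of the ratio was 2.29 (SE 0.14, edgeR adjusted p 6.63e-09), and in the clones, where 0.0371% of genes were called for the ratio, it was 2.31 (adjusted p 1.83e-09).

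The low 129S1 share of Smarcc1 was not particular to i10. In the d6 parental line, which is not part of the comparison, Smarcc1 had a share of 14%, and in d6 clone 16 it was 13.1%. In the d3 and i7 groups the shares were 45.1% to 47.5%, near those of i12. Smarcc1 overlaps Dhx30 on the other strand.

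Mrpl53 (chromosome 6, 83109040 to 83109939) had 129S1 shares of 36.2% (29.6 to 43.3) and 36.7% (29.8 to 44.2) in i12 parental against 55.8% (48.2 to 63.2) and 53.3% (44.9 to 61.5) in i10 parental. Its CAST allele stood at 28.5 and 27.3 CPM in i12 and 13.7 and 19 CPM in i10, and its 129S1 allele at 16.2 and 15.8 against 17.4 and 21.8 CPM. The ratio differed by -1.07 (SE 0.18, edgeR adjusted p 0.0315), beyond the chromosome's median of -0.22. The call was lost without each of the 4 parental libraries in turn (adjusted p 0.155 to 0.509) and with a replicate block of the ratio (0.0676). Between the clones the shares were 48.7% to 54.1%. Mrpl53 overlaps the predicted gene Gm42688 on its own strand.

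**Figure D4:**
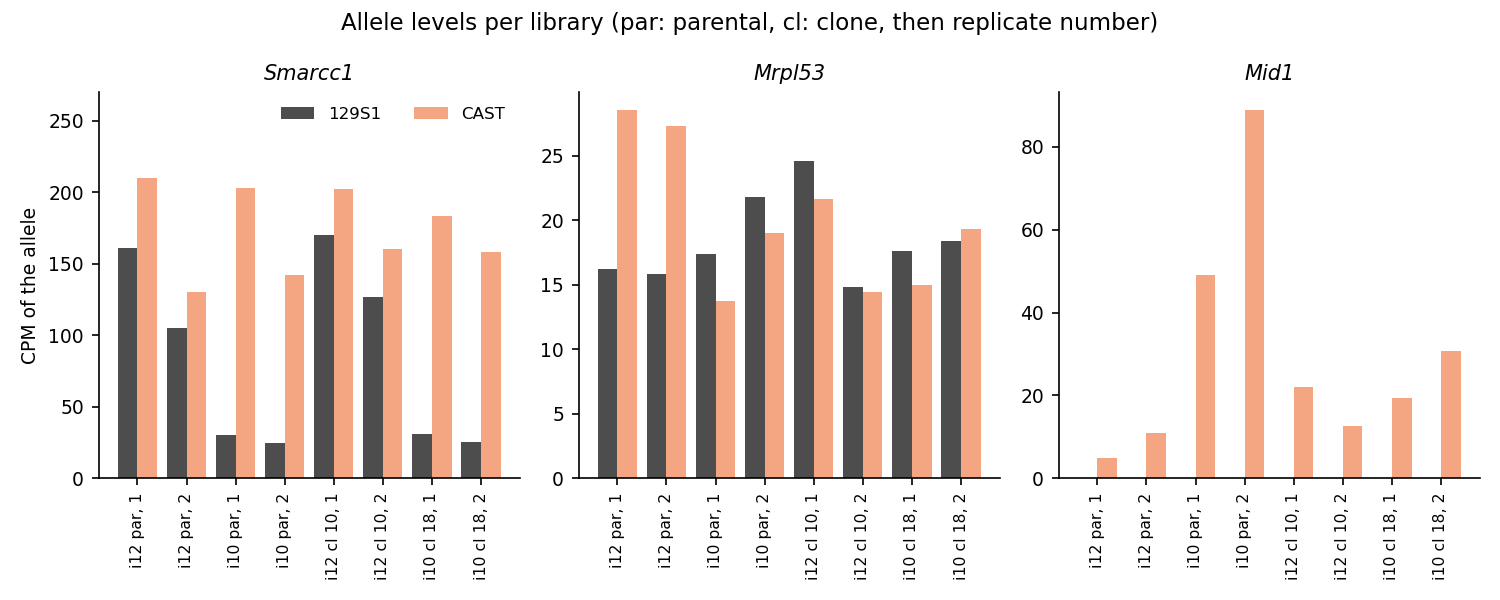
Level of the 129S1 (dark) and the CAST allele (orange) in CPM (y axis, linear, from 0) in each library of the i12 and i10 parental lines (par) and their clones (cl) for Smarcc1, Mrpl53 and Mid1; each bar is 1 library. The parental lines are apart for Smarcc1 in 129S1 and overlap in CAST, with 161 and 105 against 30.5 and 24.9 CPM of 129S1, and Mid1 has CAST counts only.

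In total counts few genes were called between the lines, and the fits differed in their number of calls. On simulated counts with replicate shifts, the fit without the block recovered 1% of 2-fold and 80% of 4-fold changes, with 0 false calls. The fit with the block recovered 81% and 99%, with 10 false calls. Without the replicate block edgeR called 0 of 16253 genes (0%), with 264 at an unadjusted p under 0.05 (1.62%) and 2 calls by DESeq2, Mid1 among them. With the block it called 3 (0.0185%), with 852 at an unadjusted p under 0.05 (5.24%). Sh3bgrl was higher and Mid1 lower in i12. The replicate number moved many genes, and the block lowered the common biological coefficient of variation from 0.246 to 0.117. With the block, a fit of the 8 libraries of i10 and i12 alone called 32 genes and a fit of the 4 parental libraries alone 151. These smaller fits leave far fewer residual degrees of freedom to estimate the spread than the fit of all 24 libraries, so their counts are no measure of how many genes differ. The libraries of the 2 lines did not overlap in 3349 genes (20.6%). This share is no measure of a difference, since 4 values in random order separate 2 against 2 at a rate of 0.333.

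Mid1, on the X chromosome (169685199 to 170005736), encodes a microtubule-bound ubiquitin ligase. It had 4.76 and 11 CPM in the i12 parental libraries and 49.0 and 88.8 CPM in the i10 parental libraries. The lines were well apart, and within each line replicate 2 was the higher one. The log2 difference was -3.12 with the block (SE 0.33, edgeR adjusted p 0.000223) and -3.13 without it (adjusted p 0.116), and with the block the call held without each parental library in turn (adjusted p 0.000791 to 0.0296).

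The clones of the same lines lay between the parental lines for Mid1, with 22.0 and 12.7 CPM in i12 clone 10 and 19.3 and 30.8 CPM in i10 clone 18 (-0.41, edgeR adjusted p 0.707). The difference of the 2 comparisons had an adjusted p of 0.156. The d6 lines had 58.6 to 154 CPM and the d3 and i7 lines 1.65 to 7.73 CPM. No 129S1 count of Mid1 was recorded in any of the 24 libraries. Of 441 X-linked genes that averaged 20 counts or more, 58.0% had a 129S1 share under 5%, against 4.45% of autosomal genes, so few X-linked genes allow an allelic comparison. Mid1 overlaps 4 genes on the other strand.

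Sh3bgrl, an X-linked gene (109095365 to 109197873) for a small protein related to thioredoxins, was outside the rule for named genes because of its low counts and is given since it is 1 of the 3 calls. It had 24 and 38 counts (5.71 and 9.69 CPM) in i12 parental and 4 and 2 counts (0.763 and 0.604 CPM) in i10 parental. The difference was 3.37 with the block (SE 0.48, edgeR adjusted p 0.00744) and 3.44 without it (adjusted p 0.149), and the call was lost in 3 of the 4 fits without 1 parental library. The clones had 2.62 and 2.36 against 0.967 and 1.98 CPM.

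Genes with the smallest p that did not pass the threshold filled the rule for named genes. T (brachyury), a target of Wnt signalling and a marker of early mesoderm, had 19.8 and 10.5 CPM in i12 parental and 7.63 and 3.32 CPM in i10 parental (1.43 with the block, SE 0.31, edgeR adjusted p 0.176). The clones gave 24.2 and 18.4 against 7.74 and 3.95 CPM, which was called with the block (1.89, adjusted p 0.00622), where 0.197% of genes were called. The list of Wnt targets and mesendoderm genes that holds T was mixed between the parental lines. With the block 9 of its 14 tested members were above 0, with a median of 0.28 and a range of -0.48 to 1.43. In the clones 10 of the 14 were above 0. Emp1, for a membrane protein of epithelial cells, had 34.5 and 21.4 against 16.0 and 5.14 CPM (1.42, adjusted p 0.158) in the parental lines and was called in the clones (1.65, adjusted p 0.0319). In total counts Smarcc1 had 371 and 235 against 233 and 167 CPM (0.59, adjusted p 0.219), and was called in the clones (0.72, adjusted p 0.0319).

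Of the genes with lower values in i12 parental, Zcwpw1, for a reader of histone methylation in meiosis, had 10.0 and 14.8 CPM against 19.3 and 29.9 CPM (-0.98, edgeR adjusted p 0.158 with the block). In the clones it was called (-1.41, adjusted p 0.00346). Lncenc1, a long noncoding RNA abundant in naive embryonic stem cells, had 244 and 205 against 327 and 360 CPM (-0.61, adjusted p 0.176). Epb41l3, for a protein that links the membrane to the cytoskeleton, had 9.04 and 10.7 against 20.4 and 28.4 CPM (-1.29, adjusted p 0.130), and 10.0 and 10.6 against 19.6 and 27.8 CPM in the clones. Oas1b, of the interferon-induced oligoadenylate synthetase family, had 45.2 and 53.6 against 77.4 and 84.9 CPM (-0.72, adjusted p 0.130), and in the clones 59.4 and 85.8 against 73.5 and 70.5 CPM. The clone libraries overlapped for Oas1b and were apart for the other 3 genes, with a clone difference of -0.28 for Lncenc1 (adjusted p 0.476).

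The remaining genes of the rule had adjusted p-values of 0.0594 to 0.245 with the block in edgeR. Higher in i12 parental were Slc25a48 (8.33 and 15.8 against 1.72 and 5.44 CPM), a mitochondrial carrier gene, and Evc2 (11.7 and 16.8 against 3.24 and 4.83 CPM), which acts in hedgehog signalling at the cilium. Ablim1, for an actin-binding LIM protein, had 154 and 222 against 86.6 and 144 CPM, and Rassf4 16.7 and 34.7 against 9.35 and 12.7 CPM. Lower were Aoah (12.1 and 5.36 against 27.7 and 13.6 CPM), a lipase gene acting on bacterial lipopolysaccharide, Liph (56.6 and 65.0 against 74.8 and 116 CPM), a phospholipase gene, and 1700001L05Rik (3.57 and 1.53 against 12.4 and 3.93 CPM). Between the clones, with the block, the log2 difference was 0.86 for Slc25a48, 0.21 for Evc2, 0.68 for Ablim1 and 0.25 for Rassf4. For Aoah it was 0.11, opposite in sign to the parental lines. None of these clone differences was called (edgeR adjusted p 0.0571 to 0.925).

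No member of the 20 gene lists was called in either fit, so the lists are described by the signs and medians of their log2 differences with the block. Over all 16253 genes 49.3% were above 0, and the median was -0.0044. The lists were chosen with earlier results of these data known.

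All 22 genes of sterol and fatty acid synthesis were above 0, with a median of 0.15. At an unadjusted p under 0.05 there were 7 of 22, all higher, where 2.72% of all tested genes were higher at that level. Msmo1, a sterol demethylation enzyme on the shifted chromosome 8, had 190 and 223 against 146 and 142 CPM (0.52, edgeR adjusted p 0.404). Lss, lanosterol synthase, had 198 and 206 against 170 and 155 CPM (0.32, adjusted p 0.899), and Cyp51, the next enzyme of the pathway, 270 and 282 against 236 and 217 CPM (0.29, adjusted p 0.938). The 19 members on chromosomes other than 3, 6, 8 and 14 were all above 0. In the clones 17 of 22 were above 0, with a median of 0.18.

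Stress lists lay mostly above 0 in the parental comparison and mostly below 0 in the clones, a difference that was not tested. Of 18 p53 targets 16 were above 0 (median 0.14) against 2 of 18 in the clones (median -0.19), and of 20 genes of the ATF4 stress response 17 were above 0 (median 0.12) against 7 of 20. Nupr1 had 30.9 and 89.8 against 24.2 and 65.9 CPM in the parental lines, with replicate 2 the higher one in both. Of the 11 mitochondrially encoded genes none was above 0 (median -0.21), while all 11 were above 0 in the clones (median 0.44). In the parental comparison no member of this list had an unadjusted p under 0.05 (edgeR with the block). None of these lists had a member called in the clones. The share of mitochondrial counts differed in the same directions, and its part in these values was not tested.

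Of 18 markers of naive pluripotency, 4 were above 0, with a median of -0.079 and a range of -0.26 to 0.082. Their summed level was 8540 and 7590 CPM in i12 parental and 8620 and 8020 CPM in i10 parental, so that both lines carried the markers of the labelled cell type. Tbx3 had 137 and 104 against 138 and 147 CPM, and Klf5 118 and 138 against 142 and 164 CPM. Of 18 genes of the spindle checkpoint 2 were above 0 (median -0.091). Of the 16 germline genes known to be silenced by DNA methylation, 10 were tested and 3 were above 0 (median -0.51), among them low counts throughout. Hormad1, a meiotic chromosome axis gene, had 7.62 and 7.91 against 11.8 and 22.1 CPM (-1.07, edgeR adjusted p 0.519). Dnmt3b, a DNA methyltransferase gene, had 106 and 27.8 against 168 and 45.0 CPM (-0.68, adjusted p 0.242), and in the clones 153 and 49.0 against 124 and 44.2 CPM.

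**Figure D5:**
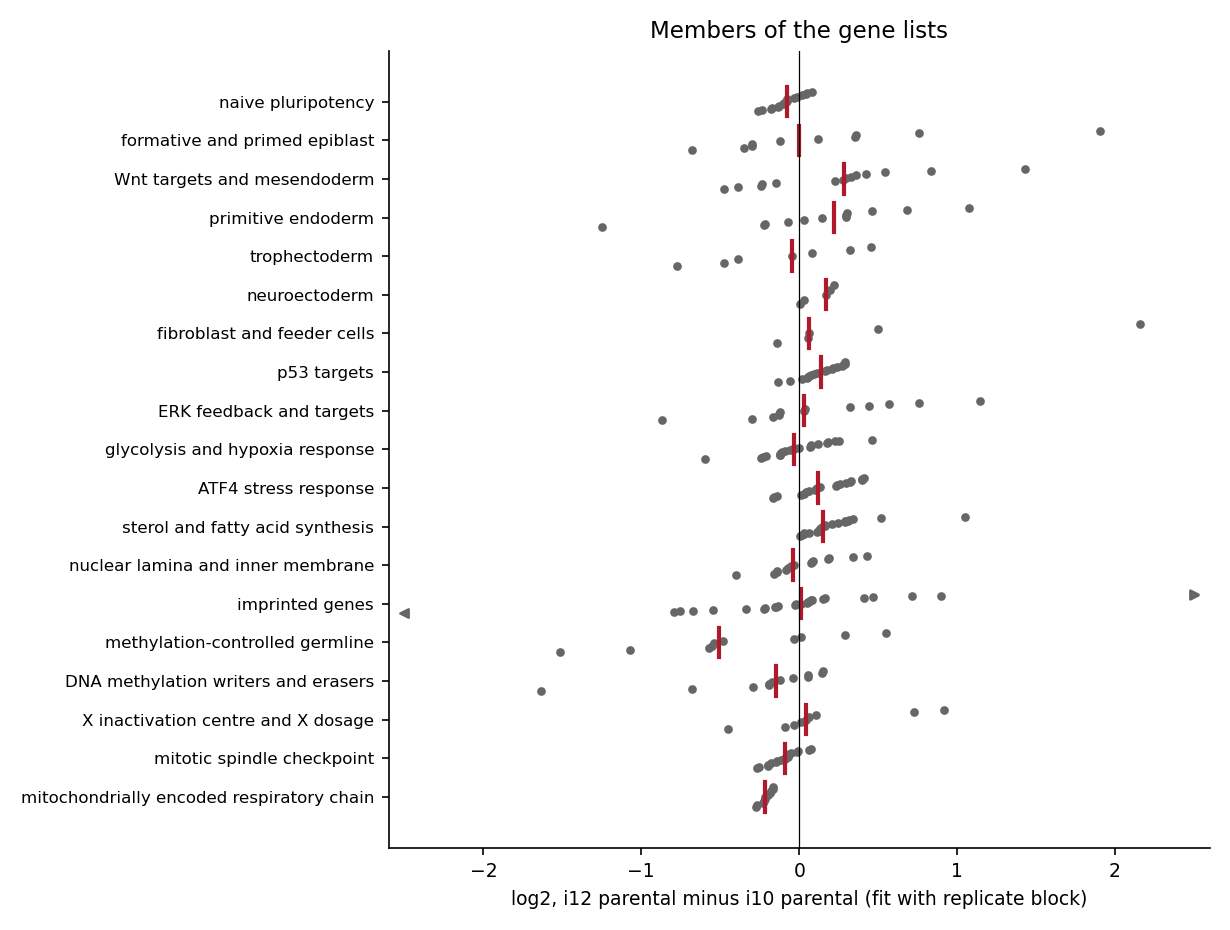
Log2 difference of i12 parental minus i10 parental in the fit with the replicate block (x axis) for each tested member of the gene lists (y axis, 1 row per list; the 2-cell list with 1 tested gene is not drawn); red bars are list medians and arrows are 2 imprinted genes beyond the axis. All 22 sterol and fatty acid genes lie above 0 and all 11 mitochondrially encoded genes below, and no point passed the adjusted threshold.

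Markers of other cell types were uneven within their lists, and none was called between the lines. The summed level of 12 fibroblast and feeder cell markers was 2420 and 3880 CPM in i12 and 2770 and 3960 CPM in i10. Most of it came from Fn1, the fibronectin gene, with 2030 and 3680 against 2410 and 3770 CPM, and from Vim, for vimentin, with 381 and 189 against 349 and 191 CPM. Of the other members 6 had no count in the 4 parental libraries (Acta2, Col3a1, Dcn, Lum, Postn and S100a4), and Col1a1 had 5 and 4 against 1 and 1 counts. Elf5 and Hand1 of the trophectoderm list and Foxa2 of the primitive endoderm list were at 0, and so were Fabp7, Hes5 and Pax3 of the neuroectoderm list. The primitive endoderm list summed to 1270 and 1370 CPM in i12 against 1230 and 1220 CPM in i10, most of it from the laminin genes Lamc1 (687 and 699 against 698 and 660 CPM), Lama1 and Lamb1. Its transcription factor gene Gata4 had 3.33 and 7.40 against 2.10 and 6.95 CPM. The trophectoderm list summed to 274 and 283 against 259 and 284 CPM, and the neuroectoderm list to 164 and 125 against 136 and 122 CPM. The 6 Zscan4 genes of the 2-cell-like state had no count in these 4 libraries, where a count of 0 allows up to 3 counts per library.

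Of Tdgf1, Rtp3, Als2cl and Lrrc2, neighbours on chromosome 9 that were followed because of earlier results on the recombined clones, none was called between the parental lines. Tdgf1, a co-receptor gene of Nodal signalling, had 1020 and 1590 CPM in i12 against 1190 and 2320 CPM in i10 (-0.39, edgeR adjusted p 0.736), and the clones 944 and 1230 against 1290 and 2280 CPM (-0.66, adjusted p 0.0354). Rtp3 had 7.62 and 9.18 against 4.58 and 7.86 CPM, Als2cl 14.5 and 30.6 against 12.8 and 32.0 CPM, and Lrrc2 46.4 and 30.1 against 49.4 and 43.2 CPM. The libraries of the 2 lines overlapped for each of the 4 genes.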

How the data were processed

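The authors deposited 1 table of raw counts, whole numbers per gene with a 129S1 and a CAST column for each of 24 libraries. STAR, SAMtools and mm10 are named in the submitters' processing notes, with no versions; the counting program and the treatment of reads without a variant are not given in the sources used here. Libraries were stranded, poly(A)-selected and read from a single end, per the labels. Of 48985 gene identifiers, 48838 matched GENCODE M21 (GRCm38, the build of mm10) without the version number, 48301 of them exactly, and the others held 0.0148% of the counts.

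Both alleles were added for total counts. edgeR 4.0.16 (R 4.3.3; TMM, filterByExpr, quasi-likelihood test) was fitted to all 24 libraries with 1 coefficient per group, which left 12 residual degrees of freedom. A second fit added the replicate number within d3, d6, i7, and i10 with i12 (8 residual degrees of freedom). The labels do not say what the numbers share; replicate differences of the i12 and i10 parental lines correlated over 16253 genes with r = 0.491, as did those of the 4 groups of i12 and i10 (0.421 to 0.491). The allelic ratio was fitted to 10795 genes that averaged 10 counts or more on each allele, with an intercept for every library and an allele effect for every group. Chromosome values are medians over genes of log2 CPM differences (prior count 0.5). limma 3.58.1 was applied to these medians in 8 libraries, a choice made after the data had been seen. Adjusted p-values are Benjamini-Hochberg over all features of a fit, called under 0.05. P-values measure the spread between these libraries. Scripts were tested on simulated data. DESeq2 1.42.0 served as an alternative, and Python 3.11.15 (numpy 2.4.6, pandas 2.3.3, scipy 1.17.1, matplotlib 3.10.9) for the rest.

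Named genes averaged 20 counts or more in the 4 libraries, the same direction in both pairs and no overlap between lines: up to 8 called per direction by log2 change, filled by the smallest p with the block. The rule added called ratios, the 4 most counted genes of the 3 chromosomes with the largest shifts, the 2 smallest p per list and 4 genes of chromosome 9. The comparison, the lists and these rules were chosen with earlier results of these data known. The labels hold 2 replicates per line, so single shares carry 95% Wilson intervals for counting error only, and the floor for a count of 0 is 3 counts. Some results, among them 1 called gene, are not reported here.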

Additional observations from a re-analysis of the deposited data

Results flagged for a closer look

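The difference between i12 and i10 was not the same in the parental lines and in the clones for 8 values, each tested as the parental difference minus the clone difference. For the allelic ratio (limma over 8 libraries, adjusted over 20 chromosomes) it was -0.20 on chromosome 3 (adjusted p 0.00333), -0.20 on chromosome 6 (0.000976), 0.26 on chromosome 8 (0.000976), 0.21 on chromosome 14 (0.00271) and -0.084 on chromosome 18 (0.0395). With the replicate block the call of chromosome 18 was lost (adjusted p 0.0831) and the other 4 were kept. For total counts it was 0.099 on chromosome 3 and 0.095 on chromosome 14 (adjusted p 0.037 for both), and 0.092 on chromosome 6 with an adjusted p of 0.0582. On chromosome 8 it was 0.097 (adjusted p 0.247). With the block chromosomes 6 (0.0331) and 8 (0.0157) were called as well.

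Rbm25 (chromosome 12, 83631236 to 83683123), a gene for a splicing factor, had a difference of 4.94 in the ratio of 129S1 to CAST (edgeR adjusted p 4.19e-13). Its ratio differed by 0.10 between the parental lines (adjusted p 1) and by -4.83 between i12 clone 10 and i10 clone 18 (adjusted p 4.89e-15). It was outside the rule for named genes and is given for this difference.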

How the results depend on the processing

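The count of genes called in total counts was the value that moved most. Without the replicate block it was 0, and it was 3 without the filter on low counts, 2 with DESeq2, 2 for 129S1 counts alone, 3 with the block within each family and 3 with a replicate block shared by all 24 libraries. It stayed 0 without each parental library in turn. With the block it was 3, against 33 without the filter, 16 with DESeq2, 32 in the 8 libraries of i10 and i12, 151 in the 4 parental libraries, 5 for CAST counts alone, 0 with no replicate block and 1 to 3 without 1 parental library. For the ratio it was 3, against 5 with a replicate block of the ratio, 7 with at least 20 counts per allele and 2 to 3 without 1 library. Smarcc1 in CAST counts alone turned to -0.012 without the block and -0.022 with it (edgeR adjusted p 1 for both). In 129S1 counts alone, the allele in which the lines differed, it was 2.27 in both fits. The cause of the changes in the number of calls was not tested. The chromosome 8 shift in total counts (0.11) was 0.13 with total count scaling, 0.12 in genes averaging 50 counts or more, and 0.13 with TMM from genes outside the 4 chromosomes, and the other chromosome shifts moved by less than the SD of the pairs. The 3 chromosomes called by limma in total counts became 6 with the replicate block and 0 to 6 without 1 parental library. Of the 6 called in the ratio, chromosome 16 was lost with gene means over all 24 libraries, where 5 were called (adjusted p 0.0782 for chromosome 16), and also among genes with a 129S1 share of 0.35 to 0.65 (0.0664). The limma fits and the TMM factors from outside the 4 chromosomes were chosen after the data had been seen. The median log2 of all genes was -0.0053 with TMM, -0.0065 with DESeq2 size factors, 0.013 with total counts and 0.015 with TMM from outside the 4 chromosomes. Depth limited the low genes, such as Sh3bgrl with 2 and 4 counts in the i10 parental libraries.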

Other observations

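The series concerns contacts with the nuclear lamina, and the 16 genes of the lamina and inner nuclear membrane list showed no call between the parental lines. With the replicate block 7 of 16 were above 0 (median -0.042). Lmnb1, for a B-type lamin, had 478 and 283 CPM in i12 parental against 529 and 312 CPM in i10 parental, and Lbr, the lamin B receptor gene, 167 and 173 against 174 and 149 CPM. Lmna, for the A-type lamins, had 28.8 and 29.8 against 29.0 and 26.0 CPM. The libraries of the 2 lines overlapped for each of these 3 genes.

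Of 29 tested imprinted genes 15 were above 0 with the block (median 0.011), but single members were far apart, from -5.3 to 4.32. In that edgeR fit 1 was higher and 3 were lower at an unadjusted p under 0.05, a level that 5.24% of all tested genes reached. Peg3 had 84.7 and 136 CPM against 83.6 and 77.7 CPM (0.41, edgeR adjusted p 0.963) and Plagl1 166 and 102 against 238 and 110 CPM (-0.33, adjusted p 0.943). Xist, the RNA that coats the inactive X chromosome, was low in both lines, with 1.90 and 3.06 against 1.91 and 0.907 CPM.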
